A study of Bos taurus with 30 samples.

Results

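Small nuclear RNAs (snRNAs), small nucleolar RNAs (snoRNAs) and small Cajal body RNAs (scaRNAs) were followed in cultured bovine endometrial cells. Their genes were taken as all rows of the count tables that the study's comparison tables type as snoRNA, snRNA or scaRNA. There were 501 such genes among 27607, made up of 341 snoRNA, 139 snRNA and 21 scaRNA genes. Types were given for 17468 of the 27607 genes, so a gene without a type could not be chosen. The choice itself used no level or test result, but whether those tables left out genes with few counts was not determined. The chosen gene with the fewest counts had 19 over the 30 libraries. Most carry only an Rfam family code as a name, and the code repeats, so the Ensembl identifier is given for single copies. The 501 genes fell into 192 families, 72 of which had more than 1 copy and together held 381 genes.

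Epithelial and stromal cells from uteri of non-pregnant cows (Bos taurus) in the early luteal phase were grown on the 2 faces of a porous membrane in a microfluidic device, and medium was flowed through it. The stromal cells were an enriched fraction and not a pure one. In the glucose experiment the medium held 5 mM (the control) or 50 mM glucose, and in the insulin experiment it held a vehicle, 1 ng/mL or 10 ng/mL insulin, all at the control glucose concentration. Each of the 10 combinations of cell type and medium had 3 libraries of total RNA, numbered 1 to 3, which gave 30 libraries.

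Spliceosomal snRNAs (U1, U2, U4, U5 and U6, and their minor-spliceosome counterparts U11, U12, U4atac and U6atac) pair with introns and with each other to remove introns from messenger RNA. Box C/D snoRNAs guide methylation of ribosomal RNA, box H/ACA snoRNAs guide its conversion of uridine to pseudouridine, and scaRNAs guide the same changes on snRNAs. In mammals most snoRNAs are cut from introns of host genes, whereas most snRNAs have genes and promoters of their own and many near-identical copies. No sequence or genome position of these genes was used here.

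Libraries held 8826470 to 16647701 counts, of which 6694 to 13255 fell on the 501 genes. That was 0.0477 to 0.107% of a library. Levels below are CPM (counts scaled to a library total of 1000000), which are not corrected for gene length, so levels of different genes are not compared. A count of 0 allowed up to 0.18 to 0.340 CPM, depending on the library (3 counts, which covers counting error only). Between 327 and 463 of the genes had a count in a library, 158 had a count in every library, and the median gene had 111 counts over all 30. The 10 most counted genes took 40.7% of the counts. Summed epithelial marker genes (20 listed, all measured) ranged from 8297 to 16303 CPM in epithelial libraries and from 3.95 to 5735 in stromal ones. Summed stromal markers (20 listed, 21 gene rows) ranged from 1229 to 7877 and from 25721 to 94654 CPM in the same order.

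A pair of libraries stood apart. Stromal replicate 3 at 50 mM glucose had 5735 CPM of epithelial markers, against 90.1 to 1493 CPM in the other 5 stromal glucose libraries, and the lowest stromal marker sum of its cell type (25721 CPM). The epithelial library of replicate 2 at 5 mM glucose had the fewest small RNA genes with a count, 327 against 418 to 456 in the other 5 epithelial glucose libraries, and its small RNA levels are described in a paragraph of their own. Smooth muscle genes summed to 12.6 to 384 CPM (epithelial) and 891 to 4502 CPM (stromal). In every stromal library but 50 mM replicate 3, the smooth muscle sum exceeded the epithelial marker sum, for example 4228 against 337 CPM in 5 mM replicate 2. Which cells gave the smooth muscle counts was not tested. Endothelial genes summed to at most 77.0 CPM, immune genes to at most 16.8 CPM and red blood cell genes to at most 6.77 CPM. PTPRC, CD3E, CD79A, HBB, ALAS2, SLC4A1 and KDR were not found by name among the genes with a type. Genes without a type were not searched by name.

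Summed by class, snoRNA genes had the most counts. In the glucose experiment their epithelial sums were 366 to 583 CPM (median 434) and their stromal sums 260 to 420 CPM (median 299.6). In the insulin experiment the ranges were 337 to 479 and 302 to 427 CPM. Over both experiments the snRNA sum ran from 118 to 387 CPM (epithelial) and from 98.3 to 241 CPM (stromal), and the scaRNA sum from 139 to 242 and from 119 to 214 CPM. Ranges of the cell types overlapped for every class in both experiments. In bulk libraries, a change in the share of cells of a kind and a change in RNA per cell cannot be told apart.

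**Figure D1:**
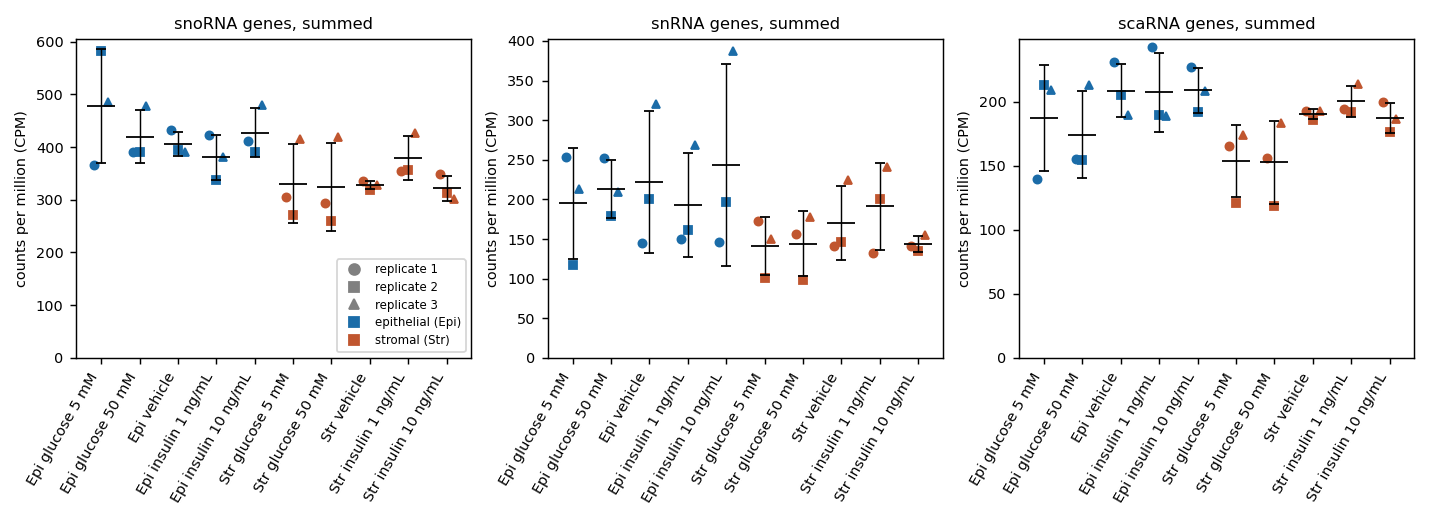
Summed CPM of the snoRNA, snRNA and scaRNA genes in each library, by cell type and medium, with the group mean and SD (n = 3) as a bar and whiskers. The snRNA sum was highest in replicate 3 of the epithelial cells with 10 ng/mL insulin, at 387 CPM, and the snoRNA sum was highest in the epithelial 5 mM replicate 2 library, at 583 CPM.

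Among the spliceosomal snRNAs, U2 (20 copies, the branch point partner) ranged most widely, from 39.0 to 293 CPM summed over its copies. The epithelial sum exceeded the stromal sum of the same replicate and medium in 6 of 6 glucose pairs and in 6 of 9 insulin pairs, or 7 of 9 with the DESeq2 size factors. U4 (3 copies) summed to 17.6 to 48.5 CPM and U5 (6 copies), which holds the exons together, to 1.83 to 10.7 CPM. U1 (28 copies), which recognises the 5′ splice site, lay at 10.6 to 18.0 CPM in all glucose libraries and at 4.56 to 13.9 CPM in all insulin libraries. The experiments were tabulated apart and share no sample, so no test was made between them.

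U6, the catalytic snRNA, had 75 annotated copies. Their sum was 20.2 to 25.2 CPM in the 9 epithelial insulin libraries and 13.8 to 18.2 CPM in the 9 stromal ones, with no overlap on total counts or DESeq2 size factors and a slight overlap with TMM factors (18.5 to 24.4 against 14.8 to 18.8 CPM). With glucose the cell types overlapped, at 4.82 to 30.3 and 17.7 to 28.2 CPM. The lowest value, 4.82 CPM, was the epithelial 5 mM replicate 2 library. Minor-spliceosome RNAs were sparse: U12 (1 copy) lay at 0.314 to 2.51 CPM, and U11 and U4atac did not exceed 0.521 CPM in any library. U6atac (3 copies) had 0.281 to 1.59 against 0.185 to 0.678 CPM in the insulin experiment and was higher in epithelial cells in 8 of 9 pairs under each scaling, with overlap, and in 2 of 6 glucose pairs (1 of 6 with TMM or DESeq2 factors). U7, which trims histone messenger RNA and belongs to no spliceosome, did not exceed 0.789 CPM.

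U12 (ENSBTAG00000037110) was higher in epithelial than in stromal cells in 6 of 6 glucose pairs (1.58 to 2.51 against 0.314 to 1.37 CPM), and the ranges did not overlap on total counts but did with TMM and DESeq2 factors. In the insulin experiment it was higher in 5 of 9 pairs. The test of cell types described below called U12 in 0 of 5 media, with log2 fold changes of -0.39 to 1.24. U8 (ENSBTAG00000043508), a box C/D RNA of ribosomal RNA processing, had 1.32 to 3.76 CPM (epithelial) and 0.955 to 4.37 CPM (stromal). U3 (6 copies), which acts in the first cuts of pre-ribosomal RNA, summed to 13.6 to 26.3 CPM in all epithelial libraries but the 5 mM replicate 2 library, which had 76.9 CPM, and to 10.3 to 26.2 CPM in stromal ones.

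Each of the 5 media allowed a comparison of epithelial with stromal cells in its own 6 libraries, paired by replicate number. A gene was called when edgeR's quasi-likelihood test gave an adjusted p (Benjamini-Hochberg over all genes tested) under 0.05 and a log2 fold change beyond 0.1 either way. With 5 mM glucose, 10 of 157 small RNA genes tested were called (6.37%), beside 21.1% of all genes tested. With 50 mM the count was 10 of 167 (5.99%), beside 17.3%. With vehicle it was 20 of 111 (18%), beside 55.2%, with 1 ng/mL insulin 26 of 100 (26%), beside 58.9%, and with 10 ng/mL 20 of 88 (22.7%), beside 54.4%.

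The called share of the small RNA genes was below that of all genes in every medium. The median small RNA gene had 111 counts over the 30 libraries, beside 5021 for protein-coding genes with a type. The part of this in the lower share was not tested. Median log2 fold changes over the small RNA genes tested, epithelial minus stromal, were -0.08, 0.35, 0.22, -0.18 and 0.38 in the order just given, beside 0.00, 0.03, 0.00, 0.00 and -0.01 over all genes. In the direction of epithelial cells 1, 2, 16, 13 and 15 small RNA genes were called, beside 10.5, 6.39, 27.8, 29.6 and 27.1% of all genes. In the direction of stromal cells the numbers were 9, 8, 4, 13 and 5, beside 10.6, 10.9, 27.3, 29.3 and 27.3%. Without replicate 1, the 50 mM comparison called 0 of its small RNA genes and 0 of all genes. Without replicate 3, which holds the stromal library with epithelial markers, it called 19 small RNA genes. The share over all genes for that last fit is not given here.

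Over the 5 comparisons, which share no library, 177 small RNA genes were tested at least once and 45 were called at least once. Of these, 24 were called higher in epithelial cells, 21 higher in stromal cells and 0 in both directions. Of those tested, 25.4% were called at least once, 11.9% in 2 or more comparisons (21 genes) and 1.13% in all 5 (2 genes). The shares over all 14308 genes tested were 63.3, 53.3 and 11.9%. The part of the low counts of small RNA genes in this difference was not tested. P-values of these comparisons measure the spread of the differences between same-numbered libraries. The labels do not tie the numbers to animals.

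SNORD113 (Rfam RF00181, the SNORD113 and SNORD114 box C/D genes of an imprinted cluster) gave the widest difference between the cell types. Its 35 copies summed, in replicates 1, 2 and 3, to 24.1, 24.7 and 77.2 CPM in stromal cells at 5 mM glucose and to 33.5, 20.7 and 24.5 CPM at 50 mM. The stromal sums were 13.0, 18.0 and 36.1 CPM with vehicle, 19.9, 16.1 and 32.5 CPM with 1 ng/mL insulin and 12.3, 21.7 and 39.9 CPM with 10 ng/mL. Epithelial sums were 1.46, 0 and 1.85 CPM at 5 mM glucose, 3.42, 1.86 and 3.16 CPM at 50 mM, and between 0 and 0.735 CPM in the 9 insulin libraries.

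Every stromal library thus lay above every epithelial library, and this held with TMM and DESeq2 factors. From the summed counts of each medium, the stromal level was 37.5 times the epithelial one at 5 mM glucose (2029 against 49 counts, exact 95% interval 28.2 to 50.8) and 9.47 times at 50 mM (1194 against 132 counts, 7.91 to 11.4). With vehicle the ratio was 102 (681 against 7 counts, 49.0 to 254), with 1 ng/mL 146 (808 against 5 counts, 62.1 to 449) and with 10 ng/mL 64.3 (824 against 10 counts, 34.8 to 135). These intervals cover counting error only.

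The ratios moved with single libraries. At 5 mM glucose the ratio was 21.5 without the stromal replicate 3 library, which had 77.2 CPM, and 55.2 without the epithelial replicate 3 library. The epithelial 5 mM replicate 2 library, which stood apart, had no SNORD113 count, and without it the ratio was 25.7 (interval 19.4 to 34.9). At 50 mM it was 8.02 to 10.8 with each library left out in turn. With vehicle it was 62.4 without the epithelial replicate 1 library, and with 1 ng/mL 92.9 without the epithelial replicate 2 library.

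Epithelial counts in the insulin experiment came mostly from replicate 3. Without that library 1 epithelial count was left with vehicle (ratio 482, interval 86.2 to 19057), 1 with 1 ng/mL (495, 88.7 to 19591) and 3 with 10 ng/mL (139.6, 47.6 to 678). Stromal markers in these epithelial replicate 3 libraries summed to 4901, 4511 and 4426 CPM (vehicle, 1 and 10 ng/mL). In epithelial insulin replicates 1 and 2 they summed to 1229 to 2275 CPM. The part of this in the epithelial SNORD113 counts was not tested. Stromal markers in replicates 1, 2 and 3 of the epithelial glucose libraries summed to 5996, 3243 and 2116 CPM at 5 mM and to 7877, 6672 and 3109 CPM at 50 mM. The part of this in the lower ratio at 50 mM was not tested.

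All 35 copies had a higher mean level in stromal than in epithelial libraries in each experiment. All 35 had a count in some stromal library of each experiment, whereas 33 had one in an epithelial glucose library and 12 in an epithelial insulin library. Only 3 to 9 copies had enough counts to be tested in a comparison, and these passed the filter through their stromal counts. The copies tested were all called higher in stromal cells: 9 at 5 mM, 8 at 50 mM, 3 with vehicle, 4 with 1 ng/mL and 3 with 10 ng/mL. They made up all stromal calls among the small RNA genes in both glucose comparisons. Over the 5 media 10 distinct SNORD113 copies were called.

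The most counted copy, ENSBTAG00000043342, was called in all 5 media. Its stromal levels were 4.11, 4.09 and 11.4 CPM at 5 mM glucose and 2.54, 2.90 and 6.28 CPM with vehicle, and its epithelial levels there were 0.266, 0 and 0.343 and 0, 0 and 0.0938 CPM. The groups did not overlap, and the adjusted p was 0.00874 at 5 mM and 0.0016 with vehicle. ENSBTAG00000054606, also called in all 5, had 0 counts in each of the 9 epithelial insulin libraries and 1.10 to 2.28 CPM in the 9 stromal ones.

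Stromal SNORD113 also differed by replicate number. In the insulin experiment the sums of replicate 3 (32.5 to 39.9 CPM) lay above those of replicates 1 and 2 (12.3 to 21.7 CPM) in all 3 media. With glucose, replicate 3 was highest at 5 mM only. At 50 mM its library is the stromal one with the high epithelial marker sum, and the part of that in its value was not tested. The mean over the stromal glucose libraries was 34.1 CPM with that library and 36.1 CPM without it. SNORD116 (11 copies, RF00108), another box C/D family of an imprinted cluster, did not show the stromal excess of SNORD113. Its epithelial sum was the higher in 9 of 9 insulin pairs under each of the 3 scalings. With glucose it was the higher in 5 of 6 pairs on total counts and in 2 of 6 with TMM or DESeq2 factors. Its epithelial and stromal sums were 2.75 to 3.63 and 1.79 to 3.54 CPM with glucose, and 1.11 to 3.15 and 0.438 to 1.18 CPM with insulin or its vehicle.

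**Figure D2:**
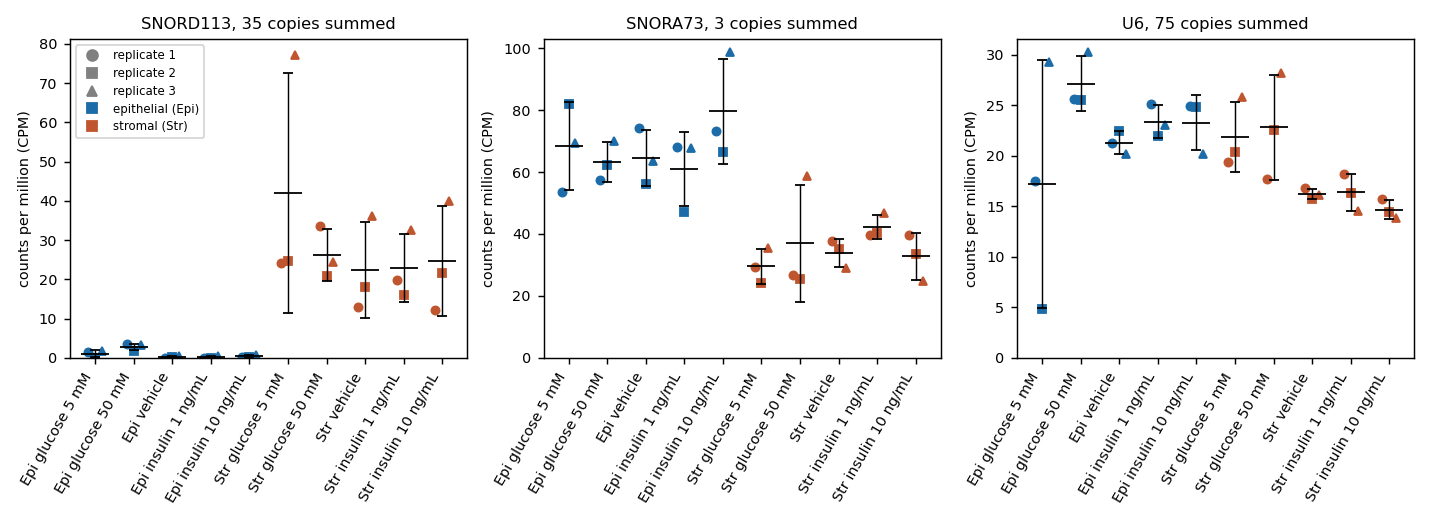
Summed CPM of 3 families in each library, by cell type and medium, with the group mean and SD (n = 3). SNORD113 lay at 12.3 to 77.2 CPM in stromal and at 0 to 3.42 CPM in epithelial libraries, SNORA73 was higher in epithelial cells, and U6 had its lowest value, 4.82 CPM, in the epithelial 5 mM replicate 2 library.

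SNORA73 (RF00045), an H/ACA snoRNA also called U17 or E1 that is needed for pre-ribosomal RNA processing, lay higher in epithelial cells. Its 3 copies summed to 53.6, 82.1 and 69.4 CPM in epithelial and 29.2, 24.1 and 35.3 CPM in stromal cells at 5 mM glucose. At 50 mM the values were 57.3, 62.4 and 70.1 against 26.6, 25.4 and 58.8 CPM, the last from the stromal library with epithelial markers. Without that library the stromal glucose mean was 28.1 CPM, and with it 33.2 CPM. In the insulin experiment epithelial sums ran from 47.2 to 98.8 CPM and stromal sums from 24.8 to 46.8 CPM. These did not overlap on total counts. They did with TMM factors (46.5 to 91.5 against 26.5 to 49.7 CPM) and DESeq2 factors (47.3 to 91.9 against 26.3 to 48.9 CPM).

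The epithelial sum was the higher in 6 of 6 glucose pairs and 9 of 9 insulin pairs under each of the 3 scalings. The stromal over epithelial ratio of summed counts was 0.436 at 5 mM glucose (95% interval 0.409 to 0.465), 0.581 at 50 mM (0.547 to 0.617), 0.523 with vehicle (0.486 to 0.563), 0.702 with 1 ng/mL insulin (0.655 to 0.751) and 0.417 with 10 ng/mL (0.388 to 0.448). These intervals cover counting error only, and leaving libraries out moved the ratio beyond them. At 50 mM it was 0.414 without the stromal replicate 3 library. At 10 ng/mL it was 0.353 without replicate 1 of both cell types and 0.528 without replicate 3 of both. By the edgeR test all 3 copies were called with vehicle and with 10 ng/mL, 1 with 1 ng/mL and 0 in either glucose comparison. ENSBTAG00000051053 was called in all 3 insulin media, with log2 fold changes of 1.29 (SE 0.22, adjusted p 0.0084), 1.07 (SE 0.22, adjusted p 0.00949) and 1.64 (SE 0.29, adjusted p 0.00972). The copy ENSBTAG00000050344 lost its vehicle call without replicate 1 or 3 (adjusted p 0.103 and 0.067).

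A SNORD14 copy, ENSBTAG00000042733 (RF00016), was called higher in epithelial cells in 4 of the 5 media. In replicates 1, 2 and 3 it had 1.41, 3.82 and 3.0 CPM in epithelial cells with vehicle and 0.0875, 0.272 and 0.108 CPM in stromal cells. With 1 ng/mL it had 1.89, 2.99 and 3.08 against 0.0926, 0 and 0.161 CPM. The groups did not overlap in these media, with adjusted p of 0.00231 and 0.00195. With so few stromal counts, the copy passed the filter in these media through its epithelial counts.

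At 10 ng/mL (log2 fold change 3.07, SE 0.84, adjusted p 0.0337) and at 50 mM glucose (2.03, SE 0.41, adjusted p 0.0310) the SNORD14 copy was called too. Leaving out replicate 2 or 3 at 10 ng/mL, and replicate 1 or 2 at 50 mM, ended those calls (adjusted p 0.147, 0.0906, 0.234 and 0.0636). At 5 mM glucose its log2 fold change was 2.52 with an adjusted p of 0.0689. The 6 SNORD14 copies together did not show the excess to this degree, with 3.79 to 6.36 against 2.49 to 4.11 CPM in the insulin experiment.

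The snoRNA of family RF00408 (ENSBTAG00000043000) had 4.63, 2.79 and 3.0 CPM in epithelial cells with vehicle against 0.437, 0.272 and 0.325 CPM in stromal cells. The groups did not overlap in any insulin medium, where the log2 fold changes were 3.23, 2.50 and 2.50 (adjusted p 0.00222, 0.00534 and 0.0074). With vehicle this gene passed the filter through its epithelial counts. In the stromal glucose libraries it lay at 0.566 to 1.40 CPM, except for 5.18 CPM in the 50 mM replicate 3 library with the epithelial markers. Both RF00278 copies were called higher in epithelial cells in all 3 insulin media: ENSBTAG00000043468 had 3.51 to 5.27 against 0.509 to 1.21 CPM, and ENSBTAG00000043202 had 1.09 to 3.01 against 0.0926 to 0.605 CPM. The latter lost its call without replicate 1 in each of these media (adjusted p 0.0546, 0.112 and 0.0748), without replicate 3 at 1 ng/mL (0.0588), with DESeq2 at 1 ng/mL (0.0682) and without replicate 2 at 10 ng/mL (0.0536). ENSBTAG00000043202 also passed the filter through its epithelial counts.

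The well counted snoRNA of family RF01294 (ENSBTAG00000045102) had 24.1 to 35.3 against 14.8 to 18.1 CPM in the insulin experiment, with no overlap. It was called in all 3 media (log2 fold changes 0.63, 0.61 and 0.67, adjusted p 0.0238, 0.0174 and 0.0204) and in none of them without replicate 1 (0.0785, 0.078 and 0.0561). Without replicate 2 the vehicle call was lost (0.0557) and without replicate 3 the 10 ng/mL call (0.0746).

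Single copies of the snRNAs also differed. The U6 copy ENSBTAG00000043028 had 1.02 to 2.38 CPM in the 9 epithelial insulin libraries and 0 to 0.339 CPM in the 9 stromal ones. It was called in each insulin medium, and lost the call at 1 ng/mL without replicate 1 or 3 (adjusted p 0.0502 and 0.0700). Another U6 copy, ENSBTAG00000042555, had 1.15 to 2.12 against 0.0926 to 0.681 CPM. It was called in the same media, and lost the call without replicate 1 with vehicle and at 1 ng/mL (adjusted p 0.0617 and 0.063). At 10 ng/mL it lost the call with DESeq2 and without any 1 replicate (adjusted p 0.0681 to 0.124). Both U6 copies passed the filter through their epithelial counts.

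A pair of U1 copies went in opposite directions with vehicle. ENSBTAG00000047143 had 1.25, 1.55 and 1.13 CPM in epithelial and 0, 0.272 and 0.108 CPM in stromal cells (log2 fold change 3.24, adjusted p 0.0173, or 0.0546 without replicate 3). This copy passed the filter through its epithelial counts. ENSBTAG00000032074 had 1.02, 1.14 and 1.88 against 2.89, 2.26 and 2.49 CPM (log2 fold change -1.03, adjusted p 0.0432). The second call was lost on total counts alone, with DESeq2, with no filter and without any 1 replicate (adjusted p 0.0635 to 0.169). The levels of these copies rest on few reads and on reads that map to only 1 place, so a split of reads between near-identical copies is uncertain.

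Outside SNORD113, fewer genes were higher in stromal cells. The snoRNA of family RF01229 (ENSBTAG00000045203) had 7.04, 9.33 and 8.55 CPM in stromal and 3.08, 2.90 and 2.39 CPM in epithelial cells with 1 ng/mL insulin, which did not overlap (log2 fold change -1.68, SE 0.23, adjusted p 0.0022). At 10 ng/mL its log2 fold change was -0.90 with an adjusted p of 0.0489, and this call was lost with DESeq2, its size factors, total counts alone and without any 1 replicate (adjusted p 0.0504 to 0.215). The U3 copy ENSBTAG00000028359 was called at 1 ng/mL, with 19.2, 22.0 and 24.1 CPM in stromal against 14.1, 8.52 and 10.7 CPM in epithelial cells (log2 fold change -1.10, adjusted p 0.00819). The scaRNA of family RF01268 (ENSBTAG00000045530), the most counted scaRNA gene, was called at 10 ng/mL, with 69.5, 63.2 and 74.1 against 57.1, 47.9 and 59.2 CPM (log2 fold change -0.44, adjusted p 0.0234), and without replicate 2 or 3 the adjusted p was 0.119 or 0.108.

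The scaRNA of family RF00601 (ENSBTAG00000044466) was the only small RNA gene called higher in epithelial cells at 5 mM glucose, with 0.931, 1.11 and 1.03 against 0.0652, 0.189 and 0.122 CPM (log2 fold change 2.78, adjusted p 0.0309). That call did not hold with DESeq2, with no filter or without any 1 replicate (adjusted p 0.0549 to 0.157). The gene passed the filter through its epithelial counts. The U2 copy ENSBTAG00000049920 was called higher in epithelial cells at 50 mM glucose (log2 fold change 1.05, adjusted p 0.0496), with vehicle and with 1 ng/mL. Without the replicate block these 3 calls were lost (adjusted p 0.388, 0.181 and 0.347). Leaving out replicate 1 also ended all 3 (0.267, 0.0645 and 0.0942), as did leaving out replicate 2 at 50 mM (0.0683) and replicate 3 at 1 ng/mL (0.0983). Its levels also differed by replicate number.

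**Figure D3:**
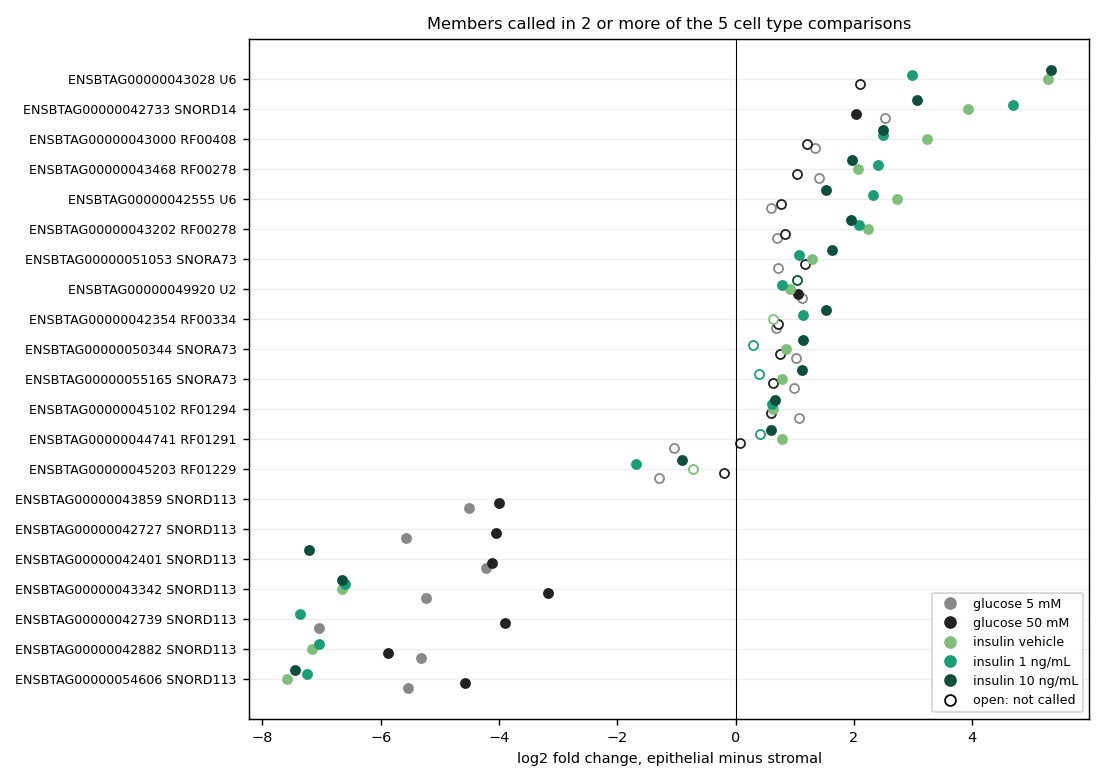
Log2 fold changes, epithelial minus stromal, of the 21 genes called in 2 or more of the 5 cell type comparisons, with 1 point a medium, filled where called. The 7 SNORD113 copies lay between -7.58 and -3.18 (fitted values against epithelial groups at or near 0, which depend on the prior count and do not give the size), and 12 of the other 14 genes lay above 0 in every medium that tested them.

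The treatments were compared within each cell type. No small RNA gene was called in any of the 8 comparisons by edgeR or by DESeq2. Of all genes tested, 0% were called for 50 against 5 mM glucose in epithelial cells and 0% in stromal cells. In epithelial cells 0% were called for 1 ng/mL insulin against vehicle, 0.124% for 10 ng/mL against vehicle (0.07% higher and 0.0545% lower) and 0% for 10 against 1 ng/mL. In stromal cells the shares were 0.0157%, 0% and 0.0313% (the last 0.0235% higher and 0.00783% lower). The small RNA genes with an unadjusted p under 0.05 numbered 2 of 167 and 2 of 152 for glucose, 9 of 105, 13 of 99 and 10 of 101 for insulin in epithelial cells, and 15 of 96, 5 of 105 and 22 of 102 in stromal cells. Over all genes those shares were 1.55 and 4.87% for glucose, 2.95, 6.96 and 4.44% for insulin in epithelial cells and 5.16, 2.79 and 3.91% in stromal cells. For the small RNA genes they were 1.20 and 1.32%, then 8.57, 13.1 and 9.90%, then 15.6, 4.76 and 21.6%. No test was made of these shares.

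Medians of the log2 fold changes over the small RNA genes tested were 0.22 and -0.19 for glucose in epithelial and stromal cells, beside 0.01 and -0.03 over all genes. For insulin they were -0.16, 0.03 and 0.10 in epithelial cells and 0.14, -0.08 and -0.22 in stromal cells, in the order above, with a median of 0.00 over all genes in each. The 3 insulin comparisons of a cell type share libraries with each other.

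In epithelial cells at 10 ng/mL insulin the SNORA73 copy ENSBTAG00000050344 had 34.8, 30.7 and 47.8 CPM, beside 33.1, 22.9 and 30.1 CPM with vehicle and 28.9, 21.4 and 33.0 CPM with 1 ng/mL. It was higher at 10 ng/mL in 3 of 3 pairs of each comparison, with log2 fold changes of 0.38 (SE 0.09, adjusted p 0.0800) against vehicle and 0.44 (SE 0.08, adjusted p 0.279) against 1 ng/mL, although the groups overlapped. Against vehicle the adjusted p was 0.00163 with no filter on low counts, 1.52e-06 without replicate 1 and 0.0128 without replicate 2. The U3 copy ENSBTAG00000048412 had 1.23, 1.93 and 6.51 against 2.67, 5.68 and 7.78 CPM with vehicle (log2 fold change -0.76, adjusted p 0.285, or 0.0416 without replicate 3). The U2 copy ENSBTAG00000050956 had log2 fold changes of -0.23 for 1 ng/mL against vehicle and 0.34 for 10 against 1 ng/mL (adjusted p 1.00 and 0.279). Without replicate 1 the adjusted p for 10 against 1 ng/mL was 0.00035 for this copy and for the SNORA73 copy. The U4 copy ENSBTAG00000050288 had -0.32 for 1 ng/mL against vehicle (adjusted p 1.00).

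In stromal cells the U5 copy ENSBTAG00000042956 had 3.94, 1.54 and 2.49 CPM with vehicle, 6.76, 4.49 and 5.25 CPM with 1 ng/mL and 2.72, 1.40 and 0.769 CPM with 10 ng/mL. The 1 ng/mL libraries lay above all others, with a log2 fold change of 1.10 (SE 0.21, adjusted p 0.344, or 0.0334 without replicate 3) against vehicle, and 10 ng/mL lay lower than 1 ng/mL (log2 fold change -1.80, SE 0.27, adjusted p 0.0830). Without replicate 1 or replicate 3 the latter adjusted p was 0.00103 or 0.00101, and with no filter 3.18e-08. A further U5 copy, ENSBTAG00000049706, had 1.95, 1.78 and 1.69 CPM at 1 ng/mL and 0.681, 0.789 and 0.480 CPM at 10 ng/mL (log2 fold change -1.48, adjusted p 0.497).

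The U3 copy ENSBTAG00000028359 had 15.1, 14.4 and 12.2 CPM with vehicle in stromal cells and 19.2, 22.0 and 24.1 CPM with 1 ng/mL, which did not overlap (log2 fold change 0.66, SE 0.11, adjusted p 0.271, or 0.0372 and 0.047 without replicate 2 or 3 and 1.86e-05 with no filter). For 10 ng/mL against vehicle in stromal cells the smallest p-values belonged to the U4 copy ENSBTAG00000054016 (log2 fold change -0.42) and the snoRNA of family RF00069, ENSBTAG00000042974 (0.74), both with an adjusted p of 0.999.

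For glucose in epithelial cells the snoRNA of family RF00614 (ENSBTAG00000042218) had 3.19, 2.37 and 3.77 CPM at 5 mM and 5.87, 7.93 and 6.39 CPM at 50 mM. The groups did not overlap (log2 fold change 1.12, SE 0.33, adjusted p 0.804). The 2.37 CPM is from the replicate 2 library that stood apart, and without replicate 2 the log2 fold change was 0.85 (adjusted p 0.0688). The snoRNA of family RF00211 (ENSBTAG00000043168) had 0.798, 0.889 and 1.10 CPM at 5 mM and 0.245, 0.360 and 0.562 CPM at 50 mM (log2 fold change -1.27, adjusted p 0.804). In stromal cells U5 (ENSBTAG00000042956) had 3.06, 3.65 and 3.42 CPM at 5 mM and 1.94, 2.39 and 1.93 CPM at 50 mM, with a log2 fold change of -0.76, and RF01229 (ENSBTAG00000045203) had 3.26, 3.14 and 4.09 against 2.63, 1.77 and 2.14 CPM, with -0.75 (adjusted p 0.696 for both).

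Whether a treatment effect differed between cell types was tested for glucose and for 10 ng/mL insulin against vehicle. No small RNA gene was called in either test (0 of 201 and 0 of 131), beside 0% and 0% of all genes, and 7 and 9 had an unadjusted p under 0.05 (3.48 and 6.87%, beside 7.53 and 4.05% of all genes). DESeq2 called 0 as well. The largest interaction by p for insulin was the U2 copy ENSBTAG00000050245 (0.89 on the log2 scale, SE 0.17, adjusted p 1.00), which had at most 0.278 CPM in replicates 1 and 2. With DESeq2 its interaction was -0.0503, so its direction depended on the tool. For glucose the snoRNAs of families RF00609 (ENSBTAG00000042801) and RF00494 (ENSBTAG00000042837) had differences of 1.54 and 1.04 (adjusted p 0.640), and for insulin RF00397 (ENSBTAG00000043324) had 1.35 (adjusted p 1.00).

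Differences by replicate number were tested as well. For insulin, an edgeR test of replicate number over 3 media called 39 of 116 small RNA genes in epithelial cells (33.6%), beside 60.1% of all genes, and 23 of 117 in stromal cells (19.7%), beside 38.2%. For glucose it called 0 of 167 and 0 of 152, beside 0% and 0.00733% of all genes, with 8 and 30 genes at an unadjusted p under 0.05 (4.79 and 19.7%, beside 15.98 and 25.4% of all genes) and 3 and 6 called by DESeq2. Without replicate 2, and so without the epithelial 5 mM library that stood apart, 38 of 181 were called in epithelial glucose libraries. Shares over all genes for that fit and for DESeq2 are not given here, so these counts are not set against a background.

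U2 copies carried the widest replicate differences. ENSBTAG00000050245 had 93.0, 72.2 and 112.8 CPM in the epithelial libraries of insulin replicate 3 (vehicle, 1 and 10 ng/mL) and 96.4, 82.9 and 60.6 CPM in the stromal ones. In the 12 insulin libraries of replicates 1 and 2 it had 0 to 0.278 CPM. Adjusted p was 1.82e-23 in epithelial and 1.24e-10 in stromal cells.

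With glucose, the same U2 copy had 29.5 to 40.0 CPM in the 4 libraries of replicate 1, 3.96 to 13.3 CPM in those of replicate 2 and 0.0610 to 0.343 CPM in those of replicate 3. The 3 replicates did not overlap. ENSBTAG00000053925 had 8.26 to 36.1 CPM in insulin replicate 3 and at most 0.596 CPM in replicates 1 and 2.

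Shares within the family showed the same. ENSBTAG00000050956 made up 53.1 to 67.8% of U2 counts in insulin replicate 1, 65.2 to 75.8% in replicate 2 and 18.4 to 26.4% in replicate 3. With glucose, its share was 41.0 to 48.4%, 6.84 to 9.48% and 27.2 to 31.6% in replicates 1, 2 and 3. ENSBTAG00000049920 held 47.3 to 64.0% in glucose replicate 2 and 45.4 to 57.8% in replicate 3, but 7.65 to 17.2% in replicate 1.

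Within a replicate number some U2 shares also differed between the cell types. In insulin replicate 3, ENSBTAG00000049920 held 16.1 to 16.9% in epithelial and 6.45 to 8.38% in stromal libraries, and ENSBTAG00000053925 held 12.3 to 13.2% and 5.11 to 8.10%. ENSBTAG00000050245 went the other way there, with 36.1 to 38.5% and 47.5 to 59.1%. In glucose replicate 1, ENSBTAG00000049920 held 15.0 to 17.2% in epithelial and 7.65 to 8.56% in stromal libraries. Replicate numbers of the glucose and insulin experiments had different mixes, and the labels do not link the numbers of one experiment to those of the other.

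SCARNA6 (RF00478), which has 3 copies, split in the same way while its sum moved less. In the insulin experiment ENSBTAG00000044861 had 37.4 to 66.5 CPM in replicate 1, 21.8 to 39.7 CPM in replicate 2 and 6.56 to 8.63 CPM in replicate 3. ENSBTAG00000045034 had 4.63 to 9.13, 11.8 to 21.0 and 34.3 to 47.5 CPM in the same libraries. The copies thus ran in opposite order. For ENSBTAG00000045034 the 3 replicates did not overlap, whereas for ENSBTAG00000044861 replicates 1 and 2 overlapped and replicate 3 lay below both (adjusted p 1.35e-17 and 1.15e-15 in epithelial, 1.50e-07 and 9.24e-08 in stromal cells).

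The 3 SCARNA6 copies summed to 50.5 to 75.4 CPM (epithelial) and 38.3 to 46.6 CPM (stromal) in the insulin experiment. On total counts these did not overlap, whereas with TMM and DESeq2 factors they did. With glucose, ENSBTAG00000045034 had 12.4 to 16.3 CPM in replicate 1 and at most 4.59 CPM in replicates 2 and 3, the 4.59 CPM being the epithelial 5 mM replicate 2 library.

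**Figure D4:**
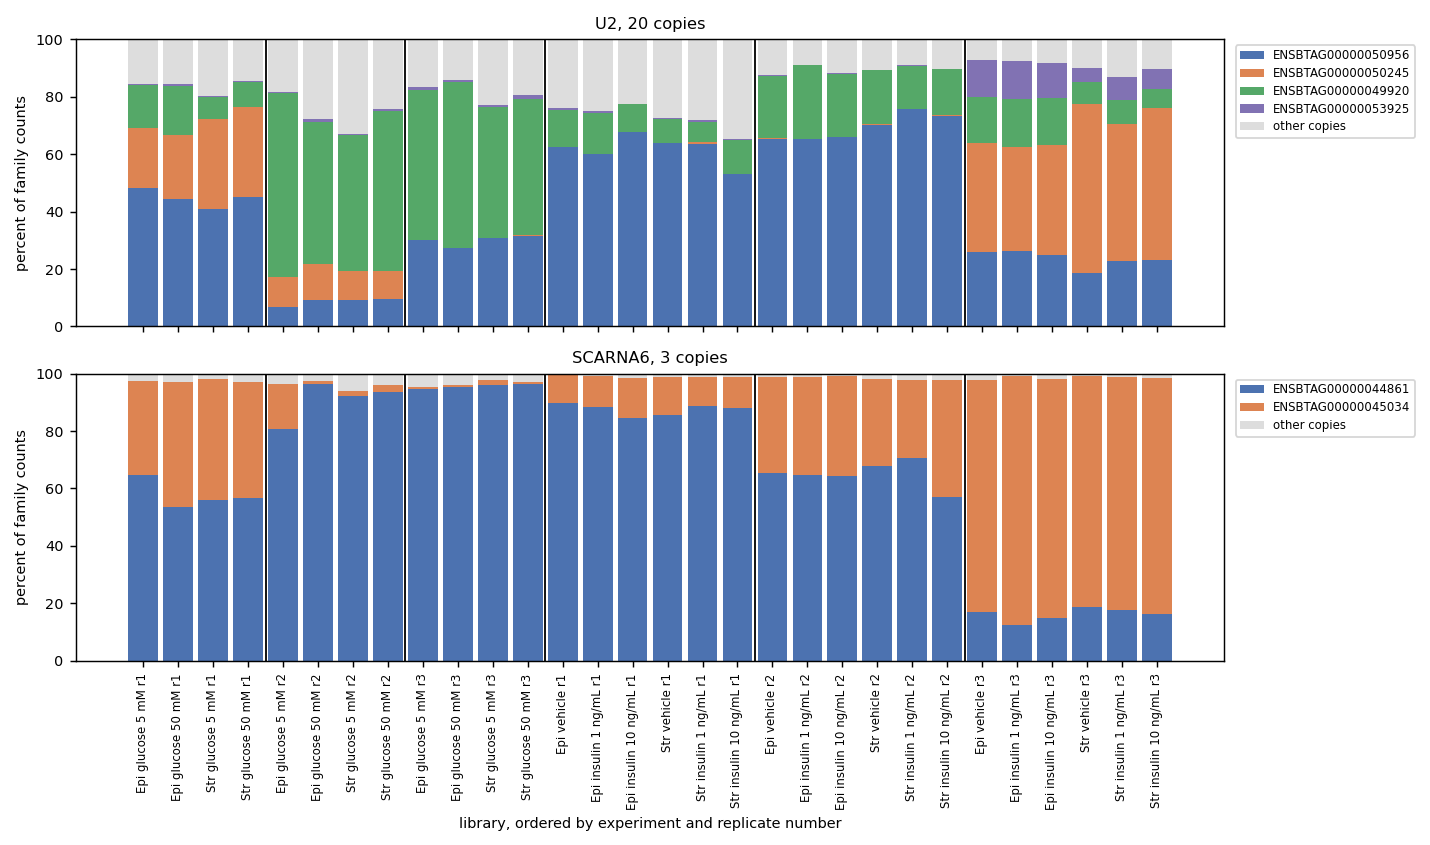
Percent of a family's counts on its leading copies in each of the 30 libraries, ordered by experiment and replicate number, with vertical lines between replicates. Shares differed between replicate numbers, for example 12.5 to 18.6% against 84.4 to 89.9% for the SCARNA6 copy ENSBTAG00000044861 in insulin replicates 3 and 1.

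The epithelial 5 mM replicate 2 library was set against the other 5 epithelial glucose libraries for the 55 small RNA genes with a median of at least 2 CPM in those 5. In it, 14 genes lay above all 5 others and 27 below all 5, and 7 were at least 2 times the highest and 14 at most 0.5 times the lowest. In the other 29 libraries, each set against the rest of its cell type and experiment, these last numbers were 0 and at most 2. The rest was 5 libraries with glucose and 8 with insulin, so the insulin libraries faced a stricter comparison.

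The genes that were high in this library included SNORD17 (ENSBTAG00000042662), at 87.6 CPM against 14.0 to 28.4 CPM. The U3 copy ENSBTAG00000028359 had 60.8 against 11.2 to 16.1 CPM, and the RF00090 copy ENSBTAG00000043162 had 35.8 against 7.38 to 9.93 CPM. The snoRNA of family RF01294 (ENSBTAG00000045102) had 58.8 against 15.0 to 33.4 CPM, and the scaRNA of family RF00602 (ENSBTAG00000044837) had 41.5 against 12.4 to 20.2 CPM.

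The genes that were low included the snoRNAs of families RF01291 (ENSBTAG00000044741), at 0.371 against 7.81 to 11.3 CPM, and RF00092 (ENSBTAG00000042475), at 1.04 against 6.19 to 14.2 CPM. RF00400 (ENSBTAG00000042713) had 0.222 against 3.12 to 6.03 CPM. The scaRNAs RF01295 (ENSBTAG00000045275) and RF00231 (ENSBTAG00000044659) and the U4 copy ENSBTAG00000050288 lay within the range of the others. The library's total (13493503 counts) was the lowest of the 6 epithelial glucose libraries, its epithelial marker sum was the highest of all libraries (16303 CPM) and its protein-coding share was 88.6%, against 78.5 to 85.1% in the other 5. The part of these in its small RNA levels was not tested. Genes chosen for naming in this paragraph were picked after their values were seen.

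**Figure D5:**
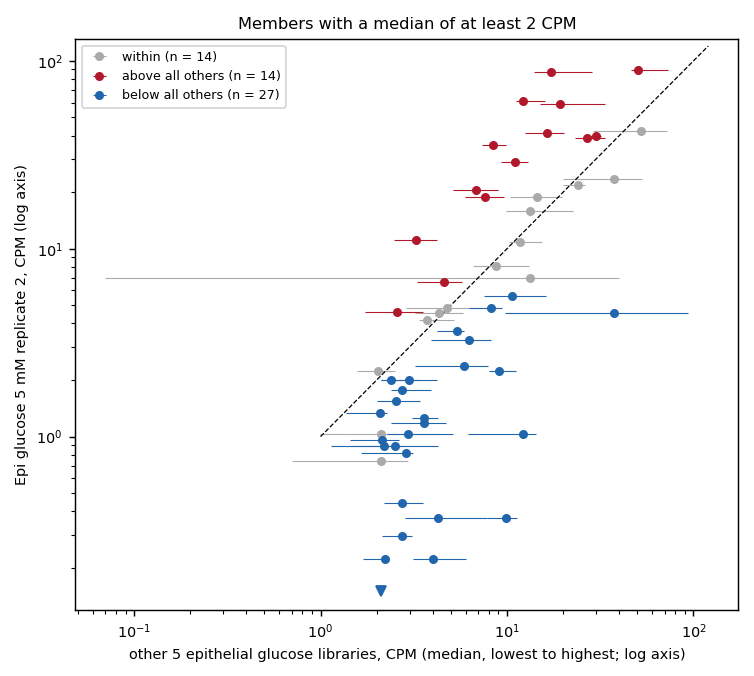
Level of 55 small RNA genes in the epithelial 5 mM replicate 2 library against the median of the other 5 epithelial glucose libraries, with whiskers from lowest to highest of those 5, on log axes. Red points (14) lie above and blue points (27) below all 5 others, the dashed line marks equal levels, and the triangle at the lower edge marks a gene with 0 counts.

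Among protein-coding genes that act with these RNAs, treatments called none: over the 8 treatment comparisons and 2 interaction tests, 0 members of 5 gene lists were called. In the vehicle comparison of cell types, 27.8% of all genes tested were called higher in epithelial and 27.3% in stromal cells, with a median log2 fold change of 0.00295. Beside this, 2 of 18 box C/D and box H/ACA snoRNP proteins were higher in epithelial cells and 5 in stromal cells, with a list median of -0.03. NOLC1, a nucleolar chaperone of these particles, had 87.4 ± 4.05 against 47.1 ± 1.33 CPM (SD, n = 3; log2 fold change 0.81, adjusted p 0.00312). RUVBL1, of the assembly machinery, had 52.5 ± 5.94 against 84.1 ± 1.78 CPM (-0.76, adjusted p 0.00435), and ZNHIT6 had 6.99 ± 1.12 against 14.3 ± 2.20 CPM (-1.12, adjusted p 0.00731).

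Against the same 27.8% and 27.3% of all genes, 7 of 40 spliceosomal snRNP proteins were higher in epithelial and 6 in stromal cells (median 0.03), and 0 of 9 minor-spliceosome proteins measured were higher in epithelial and 2 in stromal cells (median -0.20). The U5 proteins EFTUD2 and SNRNP200 were higher in epithelial cells (log2 fold changes 0.88 and 0.71, adjusted p 0.00356 and 0.00634) and SF3B5 of the U2 particle was lower (-0.86, adjusted p 0.00567). PDCD7 and ARMC7 were lower in epithelial cells (-0.88 and -0.51, adjusted p 0.0107 and 0.0475), and SNRNP48 had 0.54 with an adjusted p of 0.0531.

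Of 56 measured genes of snRNA and snoRNA synthesis, export, capping and assembly, 10 were higher in epithelial and 8 in stromal cells (median -0.08), beside 55.2% of all genes called in either direction. INTS7, of the Integrator complex that cuts snRNA ends, had a log2 fold change of 1.13 (adjusted p 0.00178), TOE1, an snRNA end-trimming nuclease, 1.56 (adjusted p 0.00195), and GEMIN4, of the SMN complex, -1.64 (adjusted p 0.00212). Of 48 measured genes known as snoRNA hosts in mammals, 19 were higher in epithelial cells and 1 in stromal cells with vehicle, 20 and 4 with 1 ng/mL insulin and 18 and 1 with 10 ng/mL. All genes were called in these directions at 27.8 and 27.3% with vehicle, 29.6 and 29.3% with 1 ng/mL and 27.1 and 27.3% with 10 ng/mL. The list medians were 0.37, 0.33 and 0.33, whereas at 5 and 50 mM glucose 0 and 1 were higher in epithelial cells (10.5 and 6.39% of all genes) and 0 and 0 in stromal cells (10.6 and 10.9%). With vehicle, TAF1D and RNF149 were higher (1.04 and 1.37, adjusted p 0.00475 and 0.00678) and TNPO2 lower in epithelial cells (-0.74, adjusted p 0.00396). Which host carries which of the 501 genes was not determined here.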

How the data were processed

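Total RNA of 30 libraries was sequenced as stranded single-end reads. The authors trimmed reads with Cutadapt, aligned them with Rsubread to the Ensembl cow genome, kept uniquely mapped reads only and counted them per gene with featureCounts; the deposited values are these raw counts, 1 table per experiment. Unique mapping leaves out reads shared by identical copies, the strand setting of the counting was not given in the sources used here, and a count does not separate a mature small RNA from host transcript that spans it. Gene types were read from the deposited comparison tables, whose fold changes and p-values were not used. 0 per-sample columns were left out, and 0 pairs of libraries had identical counts.

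Tests used edgeR 4.0.16 in R 4.3.3 (filterByExpr, TMM, glmQLFit, glmQLFTest) on all genes of the libraries compared, with replicate number as a block, following the paired design of the study's methods; calls needed an adjusted p (Benjamini-Hochberg) under 0.05 and a log2 fold change beyond 0.1. Deviations of same-numbered libraries correlated at 0.193 to 0.850 between media of a cell type, and at 0.0363 to 0.515 between cell types (11 of 15 pairs over 0.1). Alternatives were DESeq2 1.42.0, its size factors, total counts alone, no filter, no block, and leaving out each replicate. Scripts were tested on simulated data. Named genes were the 15 most counted of each experiment, the highest copy of each snRNA, U3 and U8 family, the called genes with the largest fold changes that moved alike in 3 pairs (6 a direction), the 4 genes with the smallest p in each replicate test, and, where none was called, the 2 with the smallest p. The gene set, lists and rules were chosen with earlier results of these data known. Identifiers matched 0 RefSeq genes, so positions and sequences are not given. Figures used Python 3.11.15 and matplotlib 3.10.9.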

Additional observations from a re-analysis of the deposited data

Results flagged for a closer look

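For 1 ng/mL insulin against vehicle and for 10 against 1 ng/mL, some named genes moved one way in all 3 pairs of epithelial libraries and the other way in all 3 pairs of stromal libraries. The difference between the cell types was not tested for these contrasts, no gene was called in either cell type, and both contrasts share the 1 ng/mL libraries. For 1 ng/mL against vehicle the RF00069 snoRNA ENSBTAG00000042974 had a log2 fold change of -0.28 in epithelial and 0.33 in stromal cells, and the RF01229 snoRNA ENSBTAG00000045203 had -0.16 and 0.78. For 10 against 1 ng/mL the latter had 0.28 in epithelial and -0.47 in stromal cells. In that contrast the RF00092 snoRNA ENSBTAG00000042475 had 0.51 and -0.71, the RF00231 scaRNA ENSBTAG00000044659 had 0.19 and -0.22, and the SNORA73 copy ENSBTAG00000050344 had 0.44 and -0.43.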

How the results depend on the processing

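Counts of small RNA genes called were recomputed under each alternative. The shares over all genes under these alternatives are not given here, so the counts are not set against a background. Without the replicate block the cell type comparisons called 10 and 8 genes at 5 and 50 mM glucose and 25, 27 and 23 with vehicle, 1 and 10 ng/mL insulin (10, 10, 20, 26 and 20 with it), and the treatment and interaction tests called 0; the U2 copy ENSBTAG00000049920 lost its calls, and the SNORD113 copy ENSBTAG00000054606 lost its call at 50 mM (adjusted p 0.0553). With every gene of at least 1 count kept, treatment calls rose from 0 to 2 (epithelial 10 ng/mL against vehicle), 5 (epithelial 10 against 1 ng/mL), 11 (stromal 1 ng/mL against vehicle) and 9 (stromal 10 against 1 ng/mL), the 1 ng/mL cell type comparison called 41, and replicate tests in glucose called 2 in epithelial and 1 in stromal cells; the cause was not tested. DESeq2 called 20 at 5 mM glucose between cell types, and in replicate tests 3 and 6 (glucose, epithelial and stromal) and 21 and 11 (insulin). Total counts alone called 1 in the stromal glucose replicate test. Leaving out each replicate gave 1 to 4, 0 to 9, 1 to 3, 0 to 1 and 0 to 11 calls for epithelial 10 ng/mL against vehicle, epithelial 10 against 1 ng/mL, and stromal 1 ng/mL against vehicle, 10 ng/mL against vehicle and 10 against 1 ng/mL. The highest of these were 4 and 9 in epithelial cells without replicate 1, 3 and 1 in stromal cells without replicate 2 and 11 without replicate 1. It gave 9 to 16, 0 to 19, 15 to 24 and 10 to 18 for cell types at 5 and 50 mM glucose, 1 and 10 ng/mL, the extremes being 16 and 0 without replicate 1, 19, 15 and 10 without replicate 3, and 11 at 10 ng/mL without replicate 2. For replicate tests it gave 2 to 38 and 0 to 16 (glucose, epithelial without replicate 2 and stromal without replicate 3 the highest) and 17 to 35 and 11 to 18 (insulin, without replicates 1 and 3 the lowest), and 0 to 1 for the insulin interaction. The interaction of the U2 copy ENSBTAG00000050245 was -0.0503 with DESeq2, the only sign change among named genes. With few counts per gene, 88 to 167 of the 501 genes were tested in a cell type comparison, and a difference in the others was not detectable here. The means without the stromal 50 mM replicate 3 library were alternatives chosen after seeing the data. So were the SNORD113 and SNORA73 ratios with libraries left out.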
